A study of Mus musculus with 10 samples.

Results

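Genes of gastric-type epithelium that encode secreted or surface proteins were followed in laser-captured tumour epithelium of a mouse pancreatic cancer model. The members were chosen by symbol and were Psca, Pgc, Ctse, Anxa10, Vsig1, Vsig2, Tspan1, Tspan8, Lgals4 and Spink4. All 10 were among the 15624 genes of the count table, and all 10 passed the filter on low counts that left 13006 genes for testing. The list was drawn up with the difference between tamoxifen and corn oil in these same libraries already known. That difference is therefore given for the 10 genes as a description, with no p-value for any of them. Counts of genes past a threshold are printed beside the share of all tested genes, and nothing is read from them.

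Pancreatic ductal adenocarcinoma often takes on a gastric, foveolar-like program, in which tumour cells make proteins that the normal pancreatic duct makes little of. The program is a hallmark of the classical subtype of this cancer. Some of its products are secreted into mucus or sit on the cell surface, and others, such as Ctse and Anxa10, act inside the cell. Psca, Ctse, Anxa10 and Tspan8 or their human counterparts have been used as markers of pancreatic tumours and their precursors.

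Gene expression was measured by RNA-seq in 4 libraries from mice given corn oil, the vehicle, and 6 from mice given tamoxifen. All mice were of the KPFSR line with established pancreatic ductal adenocarcinoma. From knowledge of the model and not the labels, its alleles include a mutant Trp53, Flp recombinase driven by the Pdx1 promoter, a floxed Slc7a11 and a tamoxifen-inducible Cre (CreERT2) expressed from Rosa26. Both groups carry all of these alleles, Cre from Rosa26 is not restricted to the tumour, and effects of tamoxifen itself and of the deletion cannot be told apart. Ages are not in the labels, and the labels do not tie libraries to animals, so the spread between libraries may be partly technical. Replicates are numbered here in the order of the library titles within each group, since the labels give no replicate numbers.

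Total counts ran from 16473902 to 36132316 in corn oil libraries and from 6899347 to 19462115 in tamoxifen libraries. Levels are given as normalised CPM, which are counts scaled to a common library size with TMM factors. Slc7a11, the targeted gene, stood at 23.2 to 40.1 normalised CPM with corn oil and 5.90 to 19.3 with tamoxifen, without overlap. Tamoxifen replicates 1 to 3 resembled each other (Pearson's r across genes 0.921 to 0.963) more than any other pair of libraries did (at most 0.878). For most of the genes the fold change is therefore also given without them, including each that moves by over 1.5 times. Ductal epithelial markers summed to 15970 to 33606 normalised CPM with corn oil and 14530 to 27394 with tamoxifen, with all 14 measured. The share of other cells in each library was not tested.

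Promoters were looked up because most of the genes were lower with tamoxifen while lying on 9 different chromosomes, with Tspan1 and Spink4 both on chromosome 4. RefSeq on GRCm38.p6 gave a promoter for 6 of the 10 genes (Pgc, Anxa10, Vsig1, Tspan1, Tspan8 and Lgals4). The 250 bases before the start are shown for Tspan1 and Pgc, which had the lowest fold changes, for Tspan8, whose fold change was nearest 0, and for Anxa10, which held the most motif matches. Each is written 5′ to 3′ on the strand of its gene, and capitals mark a motif match. RefSeq and GENCODE place some starts differently, so the Tspan8 window lies inside the gene as GENCODE annotates it and holds 13 of its exon bases, and the Tspan1 window holds 3. The windows are chr4:116167599-116167848 on the minus strand, chr17:47726592-47726841 on the plus strand, chr8:62123194-62123443 on the minus strand and chr10:115817034-115817283 on the plus strand.
Tspan1: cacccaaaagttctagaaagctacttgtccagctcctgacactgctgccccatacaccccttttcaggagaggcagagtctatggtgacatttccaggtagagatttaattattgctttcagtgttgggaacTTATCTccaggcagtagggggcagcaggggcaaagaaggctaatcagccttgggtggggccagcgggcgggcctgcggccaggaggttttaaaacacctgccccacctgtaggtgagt
Pgc: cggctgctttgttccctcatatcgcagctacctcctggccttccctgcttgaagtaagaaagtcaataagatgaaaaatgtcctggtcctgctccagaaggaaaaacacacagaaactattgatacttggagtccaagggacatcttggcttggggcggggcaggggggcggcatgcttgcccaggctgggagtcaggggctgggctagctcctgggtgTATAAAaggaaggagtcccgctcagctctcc
Anxa10: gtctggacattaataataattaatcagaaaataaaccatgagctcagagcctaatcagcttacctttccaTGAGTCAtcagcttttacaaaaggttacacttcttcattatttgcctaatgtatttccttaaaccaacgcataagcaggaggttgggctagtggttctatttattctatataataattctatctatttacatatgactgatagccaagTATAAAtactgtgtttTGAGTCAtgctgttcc
Tspan8: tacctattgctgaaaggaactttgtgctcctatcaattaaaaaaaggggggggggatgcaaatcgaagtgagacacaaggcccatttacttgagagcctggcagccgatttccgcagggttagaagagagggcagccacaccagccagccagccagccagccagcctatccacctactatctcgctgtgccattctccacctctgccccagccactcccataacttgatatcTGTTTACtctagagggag

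Letters of 7 motifs were searched on both strands of these 250-base windows. The TATA box (TATAAA) matched in Pgc, 31 bases before the start, and in Anxa10, 32 bases before it, against 12.3% of all 32536 RefSeq windows of this length. A GATA factor motif (AGATAA) matched in Tspan1 on the opposite strand, against 9.97% of all windows. The FOXA motif (TGTTTAC) matched in Tspan8, 18 bases before the start, against 3.17%. The AP-1 motif (TGANTCA) matched 2 times in Anxa10, against 6.73% of windows with any match. The HNF4 core (CAAAGTCCA, 0.387% of windows), the HNF1 motif (0.375%) and the CDX motif (TTTATGG, 2.45%) matched in none of the 6. Vsig1 and Lgals4 held no match to any of the 7. No motif searched was present in more than 2 of the 6 promoters, and the matches do not overlap each other.

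Ctse encodes cathepsin E, an endosomal aspartic protease abundant in surface mucous cells of the stomach, and lies on chromosome 1 at 131638306 to 131675505 of GRCm38. Its level in corn oil replicates 1 to 4 was 7377, 2318, 5720 and 3244 normalised CPM. With tamoxifen it ran from 1127 (replicate 1) through a median of 1555 to 3702 (replicate 6). The groups overlapped, since tamoxifen replicates 5 and 6 were above corn oil replicate 2, while 4 of 6 tamoxifen libraries were below every corn oil library. The means were 4665 ± 2309 (SD, n = 4) and 2067 ± 1057 (SD, n = 6). This gave a log2 fold change of -1.17 (SE 0.41), which was -0.77 without tamoxifen replicates 1 to 3. In bulk libraries of this kind, fewer cells that make a transcript and less of it per cell cannot be told apart.

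Pgc encodes progastricsin, the zymogen of a stomach aspartic protease secreted by chief and mucous neck cells, and lies on chromosome 17 at 47726842 to 47734482. Corn oil replicates 1 to 4 held 37.6, 4.12, 220.06 and 59.0 normalised CPM. Tamoxifen libraries ran from 0.327 (replicate 6) through a median of 1.64 to 37.6 (replicate 4). Pgc varied most within corn oil of the 10 genes, 53.5-fold between replicates 2 and 3, and tamoxifen replicates 4 and 5 lay within that range. Replicates 1 and 6 with tamoxifen held only 4 and 2 reads of the gene, so their low values have wide counting error. The means were 80.2 ± 95.9 (SD, n = 4) and 9.28 ± 14.9 (SD, n = 6), and the log2 fold change was -3.10 (SE 1.25). Corn oil replicate 3 carried much of this, since the value without it was -1.85. It was -2.20 without tamoxifen replicates 1 to 3 and -4.44 without tamoxifen replicate 4.

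Spink4 and Lgals4 encode a secreted Kazal-type serine protease inhibitor of mucus-producing cells and galectin-4, a secreted lectin of gastrointestinal epithelium that binds galactosides. Spink4 lies on chromosome 4 at 40920052 to 40931395. Corn oil replicates 1 to 4 held 68.6, 24.2, 9.55 and 43.95 normalised CPM of it. In tamoxifen libraries it ran from 0 reads in replicate 6 through a median of 8.49 to 28.6 in replicate 4. The absence of reads in 6899347 counts allows up to 0.490 normalised CPM, a limit that covers counting error only. All tamoxifen libraries except replicate 4 were below corn oil replicate 3, the lowest of its group. The group means were 36.6 ± 25.6 (SD, n = 4) and 10.02 ± 9.71 (SD, n = 6), and the log2 fold change was -1.86 (SE 0.90), or -2.53 without tamoxifen replicate 4.

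Lgals4 lies on chromosome 7 at 28833854 to 28841708. It stood at 42.5, 134, 32.1 and 52.2 normalised CPM in corn oil replicates 1 to 4. With tamoxifen it ran from 6.88 (replicate 1) through a median of 13.1 to 30.04 (replicate 5). The groups did not overlap, although tamoxifen replicate 5 came close to corn oil replicate 3. Its means were 65.1 ± 46.4 (SD, n = 4) and 15.6 ± 9.32 (SD, n = 6), with a log2 fold change of -2.06 (SE 0.52), or -1.44 without corn oil replicate 2. The gene resembles Lgals6, a close mouse relative that stood at 0 to 0.431 normalised CPM, and how the counting treated reads shared between such copies is not given in the sources used here.

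**Figure D1:**
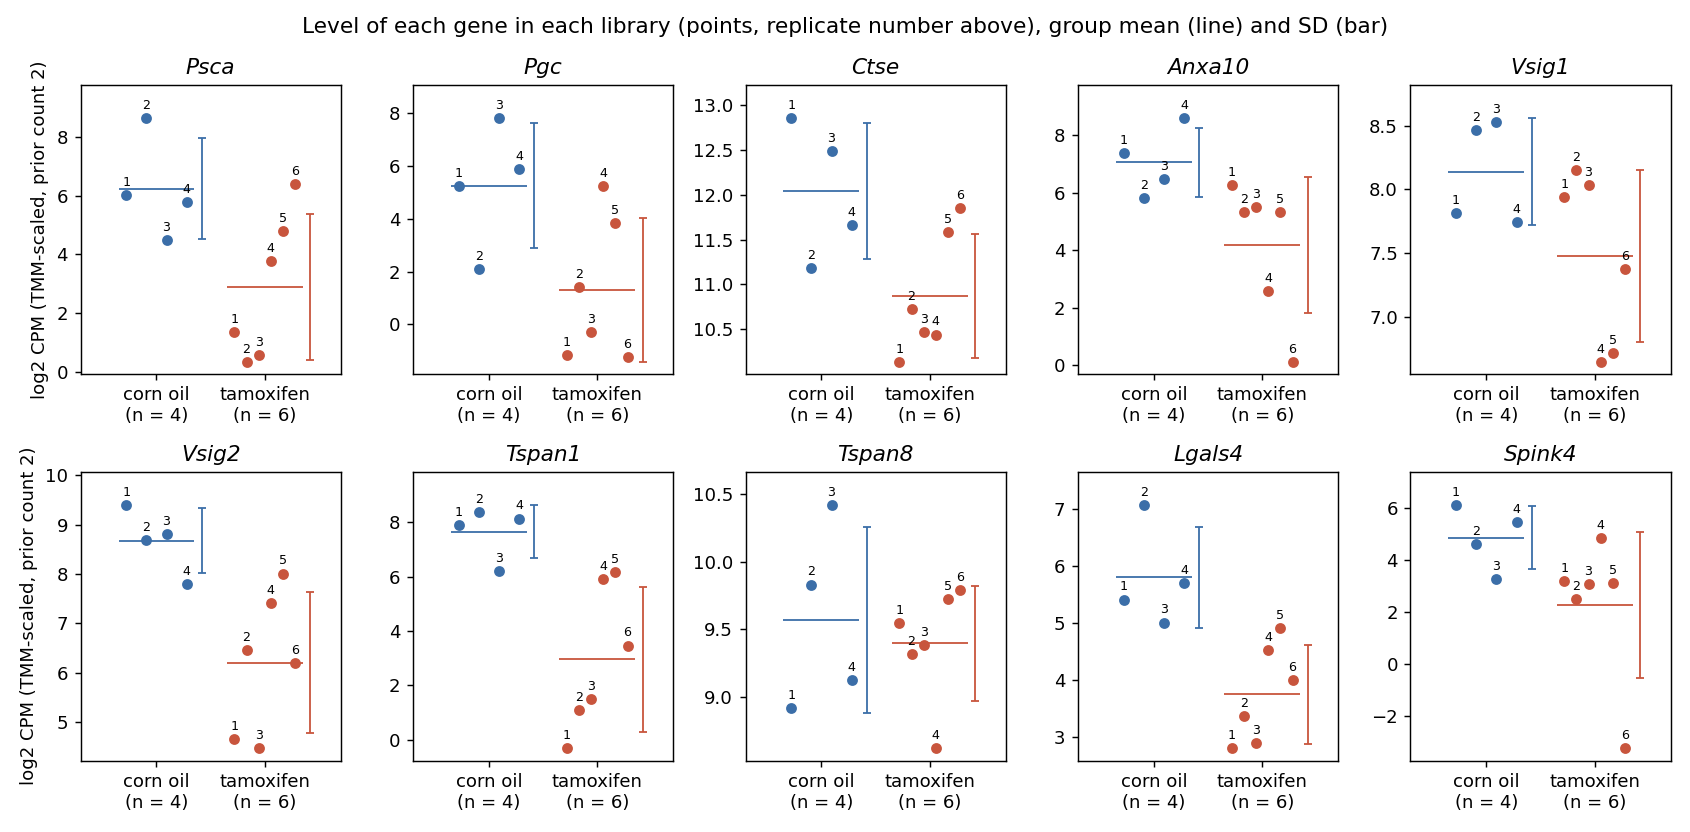
Log2 CPM (y axis, TMM-scaled with a prior count of 2) of each gene in each library, corn oil (blue, n = 4) and tamoxifen (red, n = 6). Points are libraries with the replicate number above, lines are group means and bars are SD. Tspan1 and Lgals4 show no overlap between groups, and the levels of Tspan8 overlap most.

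Of the surface proteins, Tspan1 encodes a tetraspanin, a membrane-spanning protein that organises partner proteins at the cell surface, and lies on chromosome 4 at 116161869 to 116167601. It stood at 237, 329, 74.7 and 282 normalised CPM in corn oil replicates 1 to 4. With tamoxifen it ran from 0.697 (replicate 1) through a median of 6.82 to 71.1 (replicate 5). No tamoxifen library reached the lowest corn oil library, but replicates 4 and 5, at 60.01 and 71.1, came close to corn oil replicate 3. Tamoxifen replicates 1 to 3 held 0.697 to 2.70. The means were 231 ± 111 (SD, n = 4) and 24.6 ± 32.1 (SD, n = 6). The log2 fold change of -3.23 (SE 1.03) was the lowest of the 10 genes, and was -2.28 without tamoxifen replicates 1 to 3 and -3.89 without tamoxifen replicate 5.

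Tspan8, another tetraspanin, found on gastrointestinal and pancreatic tumour cells, lies on chromosome 10 at 115816832 to 115849893. It shares 4 exon bases with the antisense gene 4930422I22Rik. Levels were 482, 911, 1369 and 557 normalised CPM in corn oil replicates 1 to 4 and ran from 393 (replicate 4) through a median of 707 to 887 (replicate 6) with tamoxifen. The groups overlapped over nearly their whole range, with 1 tamoxifen library below the lowest corn oil library. The means were 829.5 ± 405 (SD, n = 4) and 696 ± 177 (SD, n = 6). The log2 fold change, -0.25, was smaller than its SE of 0.32, and the sign turned to 0.10 without corn oil replicate 3.

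Psca encodes prostate stem cell antigen, a lipid-anchored surface protein of the Ly6 family that normal stomach and bladder epithelium also make, and lies on chromosome 15 at 74714839 to 74717069. Corn oil replicates 1 to 4 stood at 65.3, 397, 22.5 and 55.3 normalised CPM. Tamoxifen libraries ran from 1.16 (replicate 2) through a median of 8.07 to 84.1 (replicate 6). Replicate 6 was above 3 of the 4 corn oil libraries, whereas replicates 1 to 3 held 1.16 to 2.44. The means were 135 ± 175 (SD, n = 4) and 21.8 ± 32.3 (SD, n = 6). The log2 fold change was -2.65 (SE 1.12), but -1.14 without corn oil replicate 2, -1.68 without tamoxifen replicates 1 to 3, -4.03 without tamoxifen replicates 4 and 6, and -3.85 when tamoxifen replicate 6 alone was left out.

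Vsig1 and Vsig2 encode related immunoglobulin-domain proteins of the epithelial surface, of which Vsig1 is a junctional adhesion protein typical of stomach. Vsig1 lies on chromosome X at 140907608 to 140939472. It was the most even of the 10 genes within corn oil, at 225, 353, 369.8 and 214 normalised CPM in replicates 1 to 4. With tamoxifen it ran from 100.03 (replicate 4) through a median of 206 to 285 (replicate 2). Here tamoxifen replicates 1 to 3, at 246 to 285, lay within the corn oil range, and replicates 4 to 6, at 100.03 to 166, lay below it. The means were 290.42 ± 82.5 (SD, n = 4) and 194 ± 81.4 (SD, n = 6). Their log2 fold change of -0.58 (SE 0.33) became -1.23 without tamoxifen replicates 1 to 3 and -0.37 without tamoxifen replicates 4 and 6.

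Vsig2 lies on chromosome 9 at 37539255 to 37544205. Its levels were 673, 412, 452 and 223 normalised CPM in corn oil replicates 1 to 4. With tamoxifen they ran from 22.03 (replicate 3) through a median of 80.7 to 258 (replicate 5). Tamoxifen replicate 5 was the only one above the lowest corn oil library, and replicates 1 and 3 were the lowest. The means were 439.97 ± 185 (SD, n = 4) and 106 ± 91.9 (SD, n = 6), and the log2 fold change was -2.05 (SE 0.60), or -1.39 without tamoxifen replicates 1 to 3.

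Anxa10, the remaining gene, encodes a member of the annexin family found in gastric epithelium, and lies on chromosome 8 at 62057042 to 62123150. Corn oil replicates 1 to 4 held 168, 56.4, 89.3 and 385 normalised CPM. With tamoxifen it ran from 0.980 (replicate 6) through a median of 40.1 to 76.3 (replicate 1). Tamoxifen replicate 1 was within the corn oil range and the other 5 were below it, with replicates 4 and 6 far below at 5.91 and 0.980. The means were 175 ± 148 (SD, n = 4) and 34.7 ± 27.8 (SD, n = 6). The log2 fold change was -2.33 (SE 0.82), but -1.59 without corn oil replicate 4. It was -3.48 without tamoxifen replicates 1 to 3. Like Vsig1, this gene was lower in the other 3 tamoxifen libraries, though replicate 5, at 39.8, was close to replicate 2, at 40.4.

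Side by side, all 10 genes had a log2 fold change below 0, against 50.7% of tested genes, and their median was -2.06 against -0.01 over all tested genes. The fold change was -2 or lower for 6 of the 10, against 3.27% of tested genes. In 2 of the 10, Tspan1 and Lgals4, every tamoxifen library was below every corn oil library, which held for 1.95% of tested genes (3.23% in either direction). With tamoxifen replicates 1 to 3 left out this was so for 4, Anxa10, Vsig1, Tspan1 and Lgals4, against 3.83% of tested genes, and with the 3 summed as 1 sample for 3, Anxa10, Tspan1 and Lgals4, against 2.56%. Without tamoxifen replicates 4 and 6 there were 3, Tspan1, Lgals4 and Spink4, against 5.99%. None of the 10 passed an FDR of 0.05 in edgeR (0.0384% of tested genes did, 0.0308% as lower), while 7 had an unadjusted p under 0.05 (9.7% of tested genes). DESeq2 called 2, Vsig2 and Lgals4 (1.87%). Weighted limma voom called 8, all but Vsig1 and Tspan8 (9.62%). Because the genes were chosen with this contrast known, nothing is read from these counts. The median was -1.52 without tamoxifen replicates 1 to 3 and -1.72 with them summed as 1 sample.

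**Figure D2:**
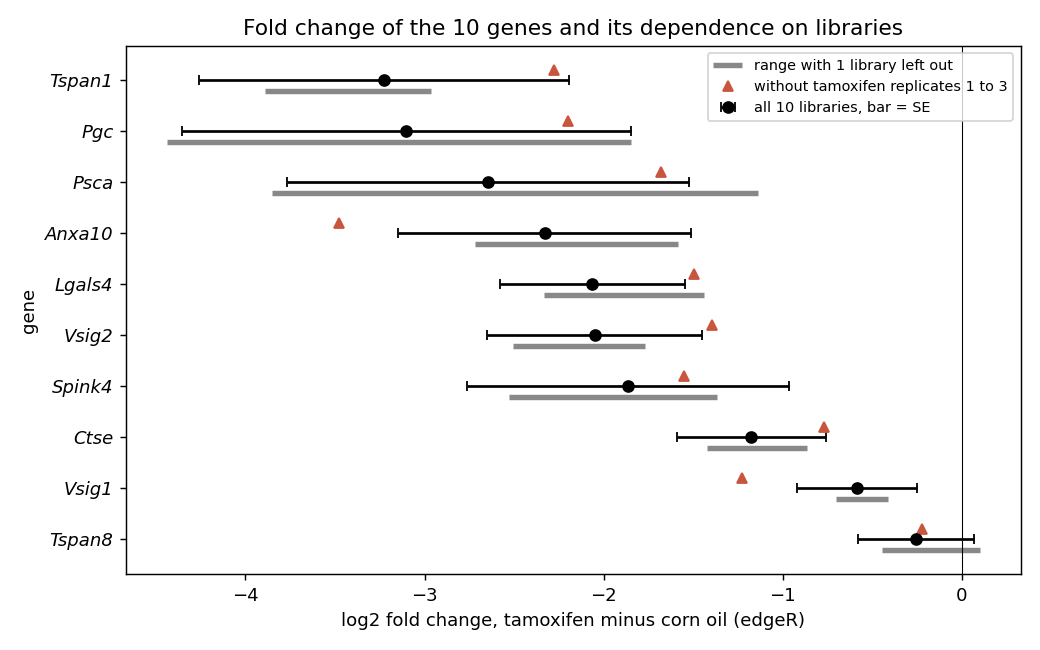
Log2 fold change of each gene, tamoxifen minus corn oil (x axis, edgeR), from all 10 libraries with its SE (black), its range when 1 library is left out (grey) and its value without tamoxifen replicates 1 to 3 (red triangle). Values run from -3.23 for Tspan1 to -0.25 for Tspan8, and the triangles of Anxa10 and Vsig1 lie further from 0 than their points.

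Together the 10 genes took 0.672% ± 0.238 (SD, n = 4) of counts in the corn oil group. In the tamoxifen group they took 0.322% ± 0.104 (SD, n = 6). The groups overlapped, with 0.448% in the lowest corn oil library and 0.462% in the highest tamoxifen library. Ctse alone made up 46.9% to 78.7% of their counts with corn oil and 50.3% to 74.9% with tamoxifen. Without Ctse the share was 0.179% to 0.261% with corn oil and 0.0799% to 0.144% with tamoxifen, and these shares of the other 9 genes did not overlap, which describes genes chosen for this contrast.

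Levels of different genes were compared per kilobase of exon, from GENCODE M21 exon lengths. With corn oil the order of the mean normalised CPM per kb was Ctse at 1472, Tspan8 at 487, Vsig2 at 222, Psca at 157, Vsig1 at 105, Tspan1 at 99.1, Spink4 at 76.7, Anxa10 at 76.2, Pgc at 57.8 and Lgals4 at 28.1. Every pair of neighbours in that order had overlapping ranges over the 4 libraries. Psca ranked above Vsig1 by its mean although it was above it in 1 of 4 libraries, since corn oil replicate 2 raised that mean. Vsig1 likewise ranked above Tspan1 although it was above it in 1 of 4 libraries. With tamoxifen the order began with Ctse at 652 and Tspan8 at 409 and ended with Pgc at 6.68. Tspan8 and the next gene, Vsig1 at 70.03, were the neighbours whose ranges did not overlap. Ctse was first per kb in 9 of 10 libraries and Tspan8 second in 8 of 10.

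Within each group the genes did not vary as a block. After each group's own mean was subtracted, Pearson's r between genes over the 10 libraries had a median of 0.03 over the 45 pairs and was above 0 in 24. These correlations describe 10 libraries that share their depth and scaling, 3 of which are alike, and no test was made of them. The highest were Tspan1 with Lgals4 at 0.85, Psca with Lgals4 at 0.81 and Vsig2 with Tspan1 at 0.76. The lowest were Vsig1 with Tspan1 at -0.88 and Psca with Anxa10 at -0.71. Among tamoxifen libraries, replicates 1 to 3 held less Tspan1, Lgals4 and Psca than replicates 4 to 6, and more Vsig1 and Anxa10. The values of these 5 genes did not overlap between the 3 and the 3, but barely so for Anxa10. That gene stood at 40.4 normalised CPM in replicate 2 and 39.8 in replicate 5. How many of all tested genes split this way was not counted, so nothing is read from the split. Tamoxifen replicate 6 differed again, with Psca at its highest and Spink4, Anxa10 and Pgc at their lowest.

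**Figure D3:**
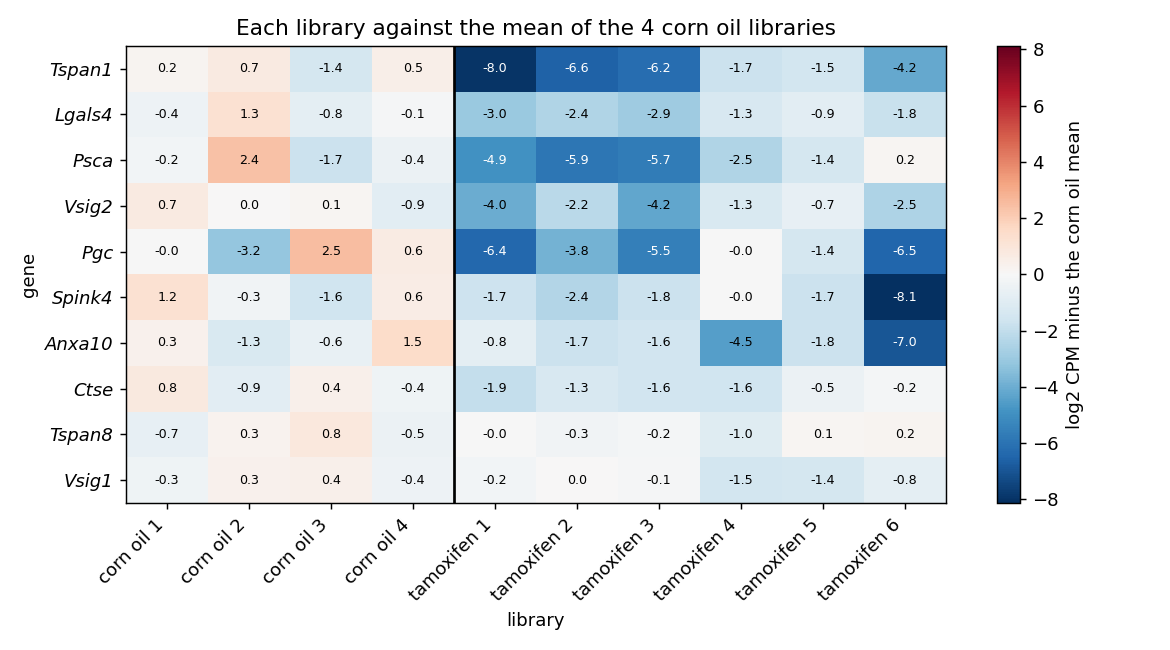
Log2 CPM of each gene in each library (columns) minus the gene's mean over the 4 corn oil libraries (colour and printed value). Blue is below that mean and red above. Tspan1 and Psca each reach their own darkest blue in tamoxifen replicates 1 to 3, where Vsig1 is near white. Anxa10, Spink4 and Pgc each reach theirs in tamoxifen replicate 6, with Pgc nearly as dark in tamoxifen replicate 1.

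The genes outside the list whose group-centred pattern was most like the mean of the 10 were sought among 8755 genes whose mean log2 CPM was 3 or more. The highest r over the 10 libraries were 0.986 for Gstm2, a glutathione transferase, 0.944 for Rnf11, 0.924 for Duoxa2, a maturation factor of the dual oxidase at the epithelial surface, 0.917 for Sox9, a ductal transcription factor, and 0.914 for Cebpb. The lowest were -0.966 for Dnm1l, -0.951 for Brms1 and -0.924 for Clk4. Tamoxifen libraries set most of this measure, since the mean deviation ran from -0.685 to 1.29 among them and from -0.178 to 0.174 among corn oil libraries. The mean is not a pattern that all 10 genes share. The r of each gene to the mean of the others ran from -0.83 for Vsig1 to 0.75 for Vsig2. The listed r are the extremes of 8755 values over 10 libraries, so they are far from 0 partly through the picking. The values are a description of these 10 libraries, with no test.

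Other genes of the gastric mucous program were measured from a list that excludes the 10. Of 17 tested genes 1, Tff1, a trefoil peptide of gastric surface mucous cells, fell at an FDR of 0.05 in edgeR and 0 rose. Mean normalised CPM of Tff1 was 5583 ± 3022 in the corn oil group (SD, n = 4) and 241 ± 230 in the tamoxifen group (SD, n = 6). Its log2 fold change was -4.53 (SE 0.66), with an adjusted p of 0.0362 in edgeR. That call was lost without any 1 of corn oil replicates 1 to 4 or tamoxifen replicates 1, 2, 3 or 6, and without tamoxifen replicates 1 to 3 together. All 17 had a log2 fold change below 0, with a median of -1.98, and 3 of the 17 were lower with no overlap between groups, against 1.95% of tested genes. At an unadjusted p under 0.05 there were 9, all lower (9.7% of tested genes in either direction), while DESeq2 called 5 (1.87%) and limma voom 7 (9.62%). Some of these genes were known to be lower in these libraries when the list was written, so it is not independent evidence of a direction.

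Of 24 tested regulators of foregut and secretory epithelium, 1 fell at an FDR of 0.05 in edgeR and 0 rose. It was Creb3l4, a membrane-bound transcription factor, whose mean normalised CPM was 145 ± 86.3 in the corn oil group (SD, n = 4) and 9.86 ± 4.60 in the tamoxifen group (SD, n = 6) (log2 fold change -3.88, SE 0.50, edgeR adjusted p 0.0351). The count was 0 without tamoxifen replicates 1 to 3, and also without any 1 of corn oil replicates 1, 3 or 4 or tamoxifen replicates 1, 2 or 3, and it was 2 without tamoxifen replicate 4. The list's median was -0.61, with 19 lower and 5 higher. At an unadjusted p under 0.05 there were 7, all lower (9.7% of tested genes in either direction). DESeq2 called 5 (1.87%) and limma voom 8 (9.62%). In 6 of the 24 the tamoxifen group was lower without overlap, against 1.95% of tested genes. Of the factors whose motifs were searched, Hnf4a had a log2 fold change of -0.09, Foxa2 of 0.44, Gata6 of 0.09, Foxa1 of -3.58 and Gata4 of -1.30. None of these 5 passed the FDR, and the groups did not overlap for Foxa1 and Gata4.

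**Figure D4:**
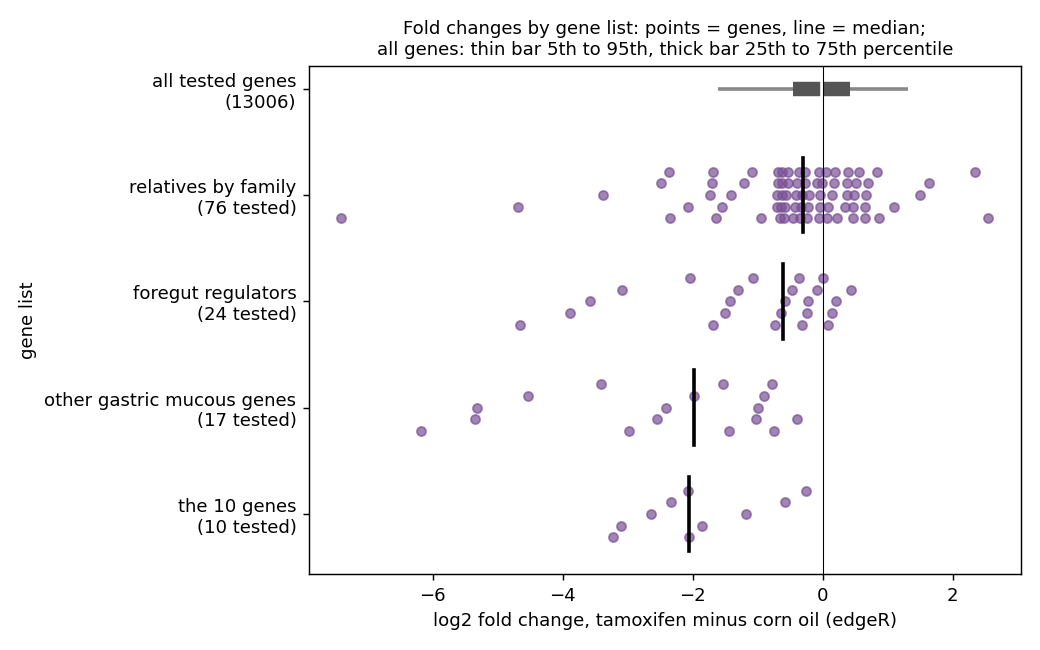
Log2 fold change, tamoxifen minus corn oil (x axis, edgeR), of each tested gene (points) in the 10 genes, other gastric mucous genes, foregut regulators and relatives by family, with the median of each list (black line). For all 13006 tested genes the thin bar spans the 5th to 95th percentile and the thick bar the 25th to 75th. Medians are -2.06, -1.98, -0.61 and -0.29, against -0.01 for all genes.

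Relatives of the 10 genes were compared family by family. Of 76 tested relatives 0 passed the FDR in edgeR. At an unadjusted p under 0.05 there were 13, 11 lower and 2 higher (9.7% of tested genes). DESeq2 called 3 (1.87%) and limma voom 17 (9.62%). The median log2 fold change of the 76 relatives was -0.29, with 49 lower and 27 higher. Annexins had a median of 0.34 over 11 genes, with Anxa2, the most abundant, at 0.09 (SE 0.31). Tetraspanins had a median of -0.21 over 25, with Cd9 at 0.15 (SE 0.29). Galectins had a median of -0.36 over 7, and Lgals3 was the most abundant. Its mean normalised CPM was 466 ± 121 in the corn oil group (SD, n = 4) and 1314 ± 603 in the tamoxifen group (SD, n = 6). All 6 tamoxifen libraries were above the highest of the corn oil group, though the adjusted p in edgeR was 0.170. It was the 1 tested relative that was higher without overlap, and 4 were lower without overlap, against 3.23% of tested genes in either direction. Named after their values were seen, these were Bace2 at -2.36, Lgals12, also a galectin, at -3.38, Cd82 at -1.09 and Igsf5 at -0.69, none past the FDR. The direction of Lgals3 was thus opposite to that of Lgals4 and Lgals12.

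Of 4 tested aspartic proteases the median was -0.34, and Ctsd, the lysosomal relative of Ctse, was at -0.01 (SE 0.35). Ly6-type proteins had a median of -0.44 over 18, with Ly6e at -0.62 (SE 0.31). Immunoglobulin-domain relatives of Vsig1 and Vsig2 had a median of -0.69 over 9, with F11r, a tight junction adhesion protein, at -0.34 (SE 0.22). Only 2 Spink genes were tested, and Spink2, at most 5.23 normalised CPM in any library, was at -2.07 (SE 1.60). No difference between the 10 genes and their families was tested.

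Markers of other cells that a section of such a tumour could hold were summed in each library. For parietal and chief cells of the stomach 1 marker of 12 was measured, Atp4a, a proton pump subunit. It stood at 0 to 6.53 normalised CPM with corn oil and 0.063 to 21.6 with tamoxifen. The other 11 had no row under their symbols in the deposited counts, so the list says little about these cells. Intestinal markers, 16 of 21 measured, summed to 357 to 1960 with corn oil and 303 to 1192 with tamoxifen, with Krt20 and Cdh17 the most abundant and the goblet mucin Muc2 at or near 0. Acinar markers, 9 of 14 measured, summed to 22.6 to 205 and 33.6 to 88.9, mostly Cela1, while Cela2a, Pnliprp1 and Prss2 were below 1 in every library. Fibroblast markers, all 13 measured and led by Fbln2 and Col3a1, summed to 495 to 1070 with corn oil and 638 to 2388 with tamoxifen. Macrophage markers, 11 of 12 measured and led by Cd14 and Lyz2, summed to 1024 to 1720 and 838 to 2625. Smooth muscle markers, all 6 measured and led by Acta2 and Tagln, summed to 20.9 to 66.2 and 30.3 to 305. The highest fibroblast and smooth muscle sums were in tamoxifen replicate 6, and the highest macrophage sum in tamoxifen replicate 4. With tamoxifen the log2 fold change was above 0 for 12 of 12 tested fibroblast markers (median 0.99) and 6 of 6 smooth muscle markers (median 1.43). Of the fibroblast markers 4 had an unadjusted p under 0.05 (9.7% of tested genes did). The log2 fold change was below 0 for 12 of 14 ductal epithelial markers (median -0.37). Of the ductal markers 3, all lower, had an unadjusted edgeR p under 0.05 (9.7% of tested genes in either direction). None of the fibroblast, smooth muscle or ductal markers passed the FDR in edgeR. The part of these cells in the levels of the 10 genes was not tested. Among epithelial keratins, Krt18 had a log2 fold change of -0.02 (SE 0.35) and Krt19 one of -0.63 (SE 0.38).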

How the data were processed

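RNA of laser-captured tumour epithelium was isolated with a Qiagen RNeasy micro kit, then amplified by SMART-seq v4 and made into Nextera XT libraries, per the labels' protocols, which do not mark strand. The values deposited by the authors are unnormalised counts, 1 row per symbol. The tools listed, per the submitters' processing notes, are featureCounts 1.5.0-p3, STAR 2.5.2b and bcl2fastq 2.17, with the mm10 build. Annotation, strand setting and multi-mapping rule: not given in the sources used here.

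Counts of 4 corn oil and 6 tamoxifen libraries were fitted unchanged in R 4.3.3 with edgeR 4.0.16 (filterByExpr, TMM, quasi-likelihood F test, Benjamini-Hochberg over 13006 genes, FDR 0.05), which was tested on simulated data. The SE is the absolute log2 fold change divided by the square root of F. Log2 CPM used a prior count of 2. Positions and exon lengths are from GENCODE M21 (GRCm38), promoters from RefSeq GRCm38.p6.

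The members, gene lists and alternatives were chosen with earlier results of these data known. All 10 members are named. Also named are genes of the gastric mucous and regulator lists past the FDR (up to 4), the most abundant tested relative per family, the 2 most abundant genes per marker list, and the 5 highest and 3 lowest genes by likeness. Foxa1, Foxa2, Hnf4a, Gata4 and Gata6 were named for their motif families, after their values were seen, and so were the acinar and goblet genes near 0. Alternatives tried were upper-quartile or RLE factors, no low-count filter, 5 CPM in 4 libraries, DESeq2 1.42.0, limma 3.58.1 voom with quality weights, each library left out, and sets of tamoxifen replicates left out or summed. Figures used matplotlib 3.10.9.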

Additional observations from a re-analysis of the deposited data

Results flagged for a closer look

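By Dixon's gap rule on normalised CPM, 1 library stood apart from the rest of its group 4 times in the 20 groups of libraries looked at. Chance gives about 1 in 20 groups where values are normally distributed, but these levels are skewed and the groups share libraries, so that rate does not apply here. Psca was highest in corn oil replicate 2, at 397 normalised CPM against 22.5 to 65.3 in the other 3. It was also highest in tamoxifen replicate 6, at 84.1 against 1.16 to 27.8 in the other 5. Pgc was highest in tamoxifen replicate 4, at 37.6 against 0.327 to 14.1. Spink4 was highest in the same library, at 28.6 against 0 to 8.97. On the log2 scale, a repeat added after seeing the data, none of these 4 stood apart, and 1 other did, Spink4 in tamoxifen replicate 6, the library with 0 reads of it.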

How the results depend on the processing

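The median log2 fold change of the 10 genes stayed below 0 in all 19 alternatives, from -2.33 to -1.52, and from -2.33 to -1.73 with 1 library left out. Single genes kept their direction in 189 of 190 values, the exception being Tspan8 without corn oil replicate 3 (0.10). Counts of calls moved far more, and the cause was not tested. Genes past the FDR in the whole table numbered 5, but 0 to 11 with 1 library left out, 0 without tamoxifen replicates 1 to 3 or with them summed, 77 without tamoxifen replicates 4 and 6, 243 in DESeq2 and 1251 in limma voom. In the same alternatives (1 library left out, replicates 1 to 3 left out, summed, replicates 4 and 6 left out, DESeq2, voom) gastric mucous genes numbered 0 to 1, 0, 0, 2, 5 and 7, and foregut regulators 0 to 2, 0, 0, 3, 5 and 8. Relatives by family numbered 0 with any 1 library left out, 2 without tamoxifen replicates 4 and 6, 3 in DESeq2 and 17 in voom. Of the 10 genes DESeq2 called 2 and voom 8, and the number without overlap was 2 to 3 with 1 library left out and 4 without tamoxifen replicates 1 to 3. In voom Psca was at -5.09, Tspan1 at -6.04, Pgc at -4.66 and Vsig1 at -0.15. Depth limits the lowest values, since tamoxifen replicate 6 held 6899347 counts. No paired analysis was made, since the labels give no pairing between corn oil and tamoxifen libraries.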

Other observations

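Single libraries held high levels of genes related to the 10, seen after the values were looked at. Cym, the stomach protease chymosin, stood at 131 normalised CPM in corn oil replicate 3, where Pgc was also highest, and at 0 to 1.85 in the other 9 libraries. Ly6k, a relative of Psca, stood at 520.48 in the same library, where Psca was at its corn oil lowest, and at 0 to 1.99 in the others. Nkx6-3, a transcription factor of the distal stomach, stood at 228 in tamoxifen replicate 5 and at 0 to 1.41 elsewhere. Phgr1, a gut epithelial gene, held 68.9 to 307 in the corn oil group and 0.327 to 24.8 in the tamoxifen group, without overlap, although its edgeR adjusted p was 0.169.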
